A study of Mus musculus with 14 samples.

Results

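The genes described here encode the machinery that shortens, decaps, degrades and silences messenger RNA. They are 45 genes chosen by name, and every probe carrying one of these names was used. All 45 were on the array, with 110 of its 56605 different non-control probes, and 108 of these probes passed the filter on dim signals, so that each of the 45 genes was tested. In the whole series 21685 gene names had a tested probe.

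RNA of isolated CD4+ T-cells from mice was measured on 14 single-colour Agilent expression arrays. Of these, 7 came from mice that carry 1 copy of the san allele of Roquin beside a wild-type copy (Roquin san/+), and 7 came from wild-type mice with no san allele. The labels name no treatment, age, sex or strain background for either group, and do not say whether each array is a mouse of its own. The p-values below therefore measure only the spread between these samples.

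Roquin, the product of Rc3h1, is an RNA-binding protein that recognises stem-loops in the tails of its target transcripts and hands them to the CCR4-NOT deadenylase complex and to decapping factors. The san allele is a point mutation, known for an excess of follicular helper T-cells. A messenger RNA is usually lost in an ordered way: deadenylases trim its poly(A) tail, Dcp2 removes the cap, and the exonuclease Xrn1 degrades the body from its 5' end. AU-rich element binding proteins, microRNA complexes and the surveillance route called nonsense-mediated decay all feed transcripts into these steps. In CD4+ T-cells these routes set the lifetime of cytokine and co-stimulatory transcripts, so the comparison asks whether a cell with a mutant Roquin carries different amounts of the machinery's own transcripts.

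Levels are log2 values of the scanner's processed signal, from which the 75th percentile of the array was taken, so 0 is the signal of a bright probe and a difference of 1 is a factor of 2. A gene is represented by its brightest tested probe, and values of different genes are not set against each other, because probes differ in binding strength. Differences are Roquin san/+ minus wild type on this log2 scale.

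Slide 1 held Roquin san/+ replicates A, B, C, F and G with wild-type replicates F and G, and slide 2 the other 7 arrays. Replicate G of Roquin san/+ and replicate E of wild type had spots lying 2 grid rows away from their probe names, and they correlated with the median array at 0.02 as deposited and at 0.99 once moved back, which left 328 spots of each without a value. These are called the displaced arrays below, and the other 12 well placed. On each displaced array many dim probes read the same value. It was -4.319 on Roquin san/+ replicate G, with Cnot7 among them, and -3.999 on wild-type replicate E, with Edc3 among them. Roquin san/+ replicate C was the dimmest array by the 75th percentile of the deposited processed signal over all non-control spots, 107 against 339 to 996 on the others. This percentile is not the one subtracted, which was taken over detected probes only. Replicate C correlated with the median array at 0.918, the lowest of the 14 after the move. Roquin san/+ replicate F held the highest summed levels of B-cell, myeloid, NK, CD8 and erythroid markers.

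No gene of the machinery passed the test between the genotypes. After Benjamini-Hochberg adjustment limma called 0 of 33120 probes, a percent called of 0, and the lowest adjusted p of any of the 108 probes was 0.883. At an unadjusted p below 0.05 the fit gave 1013 probes (3.06%), of which 831 were higher in Roquin san/+ (2.51%) and 182 lower (0.550%). Among the 45 genes 0 were higher and 1 was lower, the anti-proliferative adaptor Tob1. Of all 21685 tested genes read by their brightest probe, 680 were higher and 126 lower. The arrays of the 2 genotypes overlapped for all 45 genes, while over all probes 11 lay wholly higher (0.0332%) and 3 wholly lower (0.00906%).

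The differences of the 45 genes ran from -0.81 to 0.54 with a median of -0.03, and 39 of them were smaller than 0.2 in size. Of the 45, 19 lay above 0 and 26 below, against 12537 above and 9148 below of the 21685 tested genes read by their brightest probe. The 108 tested probes of the 45 genes lay above 0 in 43 cases and below in 65, against 56.0% of all probes above and 44.0% below. The 95% interval of the difference lay within 1 log2 unit of 0 for 42 genes. The median distance from a gene's estimate to either end of its interval was 0.38. Scaling moves the balance: with the percentile taken over all probes 40 of the 45 genes lay below 0, and with the normexp background correction 22 did. Over all tested probes the median difference was 0.05, against 0.21 with normexp, -0.08 with quantile normalization, -0.07 with the percentile over all probes and -0.07 in the authors' own log2 values.

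**Figure D1:**
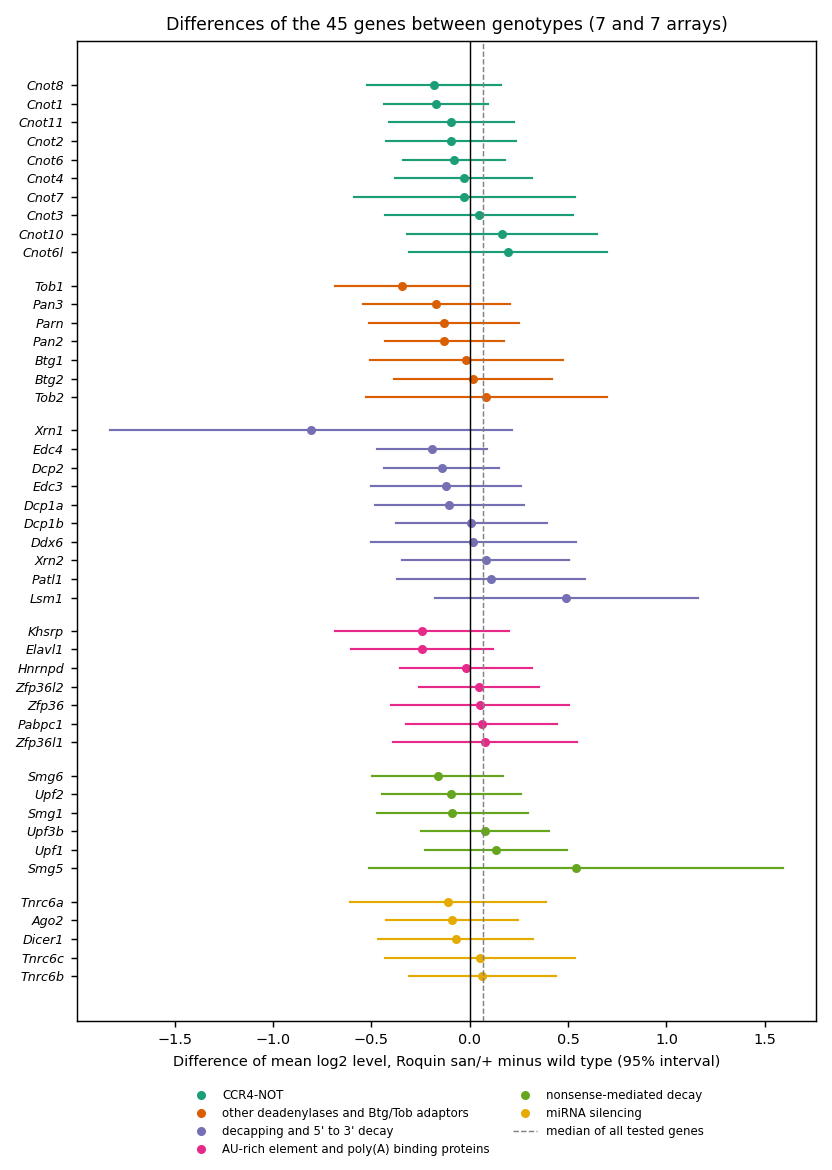
Difference of mean log2 level between Roquin san/+ and wild-type arrays for each of the 45 genes (x axis), ordered within their functional groups (y axis). Points are limma estimates and lines 95% intervals, and the dashed line marks the median over all tested genes, 0.07. Only the interval of Tob1 stops short of 0, and those of Xrn1, Lsm1 and Smg5 are the widest.

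The within-genotype SD had a median of 0.295 over the 45 genes, against 0.555 over all tested genes, and ran from 0.12 for Cnot6, a catalytic deadenylase, to 0.99 for Smg5. The medians were not matched for signal level. Of the 33120 tested probes 24081 were well above background on all 12 well-placed arrays with no missing value. The brightest probes of 43 of the 45 genes met that rule. The widest spreads belonged to Smg5, Xrn1 and Lsm1, whose differences were also the furthest from 0. All 3 of their brightest probes are named by a transcript model or clone and not by a RefSeq mRNA. Each gene also has a tested probe named by its RefSeq mRNA, so the pairs of probes are set out first. The genes are Smg5, a decay factor of the nonsense-mediated route, Lsm1, a subunit of the ring that binds shortened 3' ends before decapping, and Xrn1.

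The sequences below are 30-base stretches of the 60-base probes as the array's design gives them, 5' to 3', shown because the probes of a gene gave different results. Capitals mark bases that lie in a run of 16 or more found unchanged in probes of other genes.
Smg5 brightest probe: TCTCGAAAAAACAAACAAACAAAAAACgag
Smg5 RefSeq probe: ccaactggcctagctgctttggctgtgctt
Lsm1 brightest probe: ctacataGTGAGTTTGAGGCCAGCctgagc
Lsm1 RefSeq probe: tgaaaagtgatctcattctttcatggatgc
Xrn1 brightest probe: GCCTCTGTGTGTGTGTagtgtgcatacaga
Xrn1 RefSeq probe: acttgactctgagtaatgggtggtatgctg

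The brightest Smg5 probe shares such a run with 24 probes of other genes, the brightest Lsm1 probe with 2 and the brightest Xrn1 probe with 2, while the RefSeq probes share none. Over all tested probes 14.3% share a run with a probe of another gene, and 0.45% do so with at least 24. In the mouse build mm9, used by the array's design, the Smg5 probes lie at chr3:88156586-88156645 (brightest) and chr3:88166099-88166158 (RefSeq), the Lsm1 probes at chr8:26908150-26908209 and chr8:26912646-26912705, and the Xrn1 probes at chr9:95875719-95875778 and chr9:95957773-95957832, all on the plus strand. Whether each lies in an exon or an intron was not looked up, since no annotation of that build was used here.

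By its brightest probe Smg5 had a lowest level of 4.43, a median of 4.70 and a highest of 8.16 in Roquin san/+, and 3.97, 4.61 and 5.12 in wild type. The genotypes overlapped except for 1 array, Roquin san/+ replicate C, while the next highest Roquin san/+ array was at 5.0. The difference was 0.54 ± 0.49 (SE), and without replicate C it was 0.04. By the RefSeq probe the levels were 0.11, 0.54 and 1.18 in Roquin san/+ and 0.18, 0.39 and 1.28 in wild type, a difference of 0.03 ± 0.21, and replicate C held the median.

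Lsm1 showed the same array. By its brightest probe the lowest, median and highest levels were 3.05, 3.33 and 5.40 in Roquin san/+ and 2.80, 3.05 and 3.62 in wild type, a difference of 0.49 ± 0.31. Replicate C was the highest again, and without it the difference was 0.19. By the RefSeq probe the levels were -1.48, -0.64 and -0.15 against -1.17, -0.37 and -0.12, a difference of -0.18 ± 0.22, and replicate C was the lowest. The sign of the Lsm1 difference therefore depended on the probe.

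For Xrn1 the array that stood apart was Roquin san/+ replicate E. The brightest probe gave -3.65, -0.93 and -0.67 in Roquin san/+ and -1.69, -0.74 and 0.66 in wild type, a difference of -0.81 ± 0.48 that shrank to -0.45 without replicate E. On the slide holding replicate E it was -1.79, and on the other slide 0.21. The RefSeq probe gave -1.71, -1.1 and -0.76 against -1.68, -1.37 and -0.34, a difference of -0.04 ± 0.25. Of the 7 tested Xrn1 probes 3 lay above 0 and 4 below, from -0.81 to 0.38. The brightest probe is the most upstream of the 7 and the RefSeq probe the most downstream. Replicate E was the lowest Roquin san/+ array for every one of the 7 but the RefSeq probe, where replicate C was lower. The part of position along the transcript, described below for this array, in the Xrn1 difference was not tested.

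The probes of other genes that share these runs were read on the same arrays. Of the 14 tested probes sharing a run with the Smg5 probe, 11 were higher on Roquin san/+ replicate C than the median of the other 6 Roquin san/+ arrays, and the median deviation over all 14 was 2.52. For Lsm1 both sharing probes were higher there, by 1.08 and 2.16. For Xrn1 both sharing probes were lower on replicate E, by -2.73 and -3.08. Over all tested probes the corresponding median deviation was 0.33 on replicate C and -0.29 on replicate E. Other probes of the machinery with a tested sharing probe went both ways on replicate C. A dimmer Xrn2 probe was at -1.155 there and at -1.39 or below on the other Roquin san/+ arrays. Its sharing probe was higher on replicate C by 3.90. The brightest Cnot1 probe was at 0.47 on replicate C and from 0.43 to 0.85 on the others. Its sharing probe was lower on replicate C by -0.55. The brightest Cnot10 probe was at 0.13 on replicate C and at -0.69 or below on the other Roquin san/+ arrays, while its sharing probe was lower on replicate C by -4.06. A dimmer Xrn1 probe was at -1.74 on replicate C and at -4.11 or below on the others, while its sharing probe was lower there by -0.84. On replicate E the Cnot10 probe was at -0.69, above all but replicate C, and its sharing probe was higher by 2.32. The dimmer Xrn2 probe was at its lowest on replicate E, -2.87, while its sharing probe was higher by 0.44. The brightest Cnot1 probe was at its highest on replicate E, 0.85, and its sharing probe was higher by 0.01. The dimmer Xrn1 probe was at its lowest on replicate E, -5.81, and its sharing probe was lower by -0.87. The part of shared sequence in the differences was not tested.

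**Figure D2:**
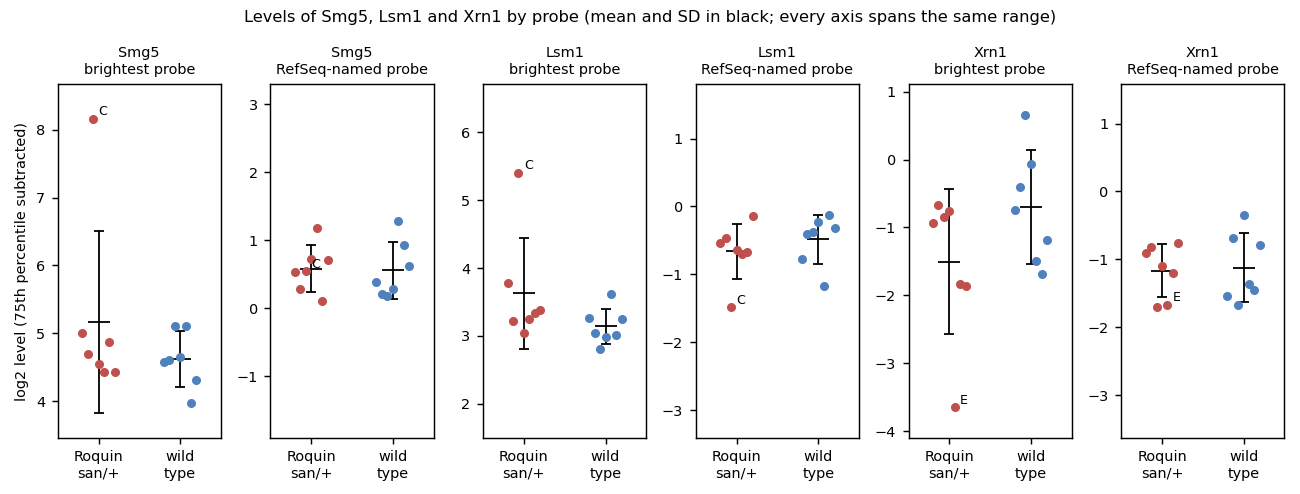
Log2 level of Smg5, Lsm1 and Xrn1 on each array (y axis) by genotype (x axis), for the brightest probe and the probe named by the RefSeq mRNA, with mean and SD in black. The marked array is Roquin san/+ replicate C for Smg5 and Lsm1 and replicate E for Xrn1. With the brightest probes the marked array stands far from the other 6 Roquin san/+ arrays.

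With every gene read from its brightest RefSeq probe, a choice made after these values were seen, 38 of the 45 genes kept their probe, the median difference was -0.04 and Tob1 remained the only gene with an unadjusted p below 0.05. Of the 35 genes with more than 1 tested probe, 18 had probes on both sides of 0. They were Cnot1, Cnot2, Cnot10, Tob2, Btg1, Btg2, Dcp1a, Ddx6, Xrn1, Xrn2, Lsm1, Khsrp, Upf3b, Smg1, Ago2, Tnrc6b, Tnrc6c and Dicer1.

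The CCR4-NOT complex is the main cytoplasmic deadenylase and the partner that Roquin recruits. Its 10 members had a median difference of -0.06, with 3 above 0 and 7 below and 0 past an unadjusted p of 0.05 in either direction. Cnot1, the scaffold on which the complex is built, had a lowest level of 0.43, a median of 0.54 and a highest of 0.85 in Roquin san/+ and 0.66, 0.79 and 0.89 in wild type. On 4 of the 7 Roquin san/+ arrays it lay below every wild-type array, the other 3 lay within the wild-type range, and the difference of -0.17 ± 0.12 (SE) had a limma p of 0.185. Its 4 tested probes ran from -0.30 to 0.21. Cnot8, a catalytic subunit, was at 0.45, 0.84 and 1.21 in Roquin san/+ and 0.63, 0.98 and 1.30 in wild type. In both genotypes replicate C was the lowest, and the difference was -0.18 ± 0.16, or -0.12 without the Roquin san/+ replicate C. The other catalytic subunit of that kind, Cnot7, was dim and scattered, with levels from -4.50 to -3.27 in Roquin san/+ and from -4.53 to -3.41 in wild type and a difference of -0.03 ± 0.26. Cnot3, a regulatory subunit, ran from -0.39 to 0.78 and from -0.51 to 0.63, with replicate E the highest in both genotypes and a difference of 0.05 ± 0.22. The exonuclease subunits Cnot6 and Cnot6l differed by -0.08 and 0.19, and Cnot2, Cnot4, Cnot10 and Cnot11 by -0.09, -0.03, 0.16 and -0.09.

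Outside that complex, poly(A) is also trimmed by the Pan2-Pan3 pair and by Parn, and the Btg and Tob proteins dock the CCR4-NOT catalytic subunits onto transcripts. These 7 genes had a median difference of -0.13, with 2 above 0 and 5 below. Tob1, known for holding T-cells in quiescence, had a lowest level of -3.13, a median of -2.89 and a highest of -2.40 in Roquin san/+ and -2.68, -2.51 and -2.23 in wild type. On 5 of the 7 Roquin san/+ arrays it lay below every wild-type array, and the other two, replicates C and D, lay within the wild-type range. The means were -2.82 ± 0.30 (SD, n = 7) and -2.47 ± 0.17 (SD, n = 7), a difference of -0.34 ± 0.16 (SE) with an adjusted p of 0.883. The unadjusted limma p was 0.0483, and Tob1 has only 1 probe, with which no second reading can be compared. Within the slides the difference was -0.35 and -0.29, and with slide as a block -0.32 with an unadjusted p of 0.0986. With each array left out in turn it ran from -0.41 to -0.29, and the unadjusted p stayed below 0.05 only without Roquin san/+ replicate C, Roquin san/+ replicate D or wild-type replicate E. The difference was -0.57 in the authors' log2 values, -0.51 with quantile normalization and -0.46 with the percentile over all probes. There the unadjusted limma p was 0.0063, 0.0066 and 0.0093, and the adjusted p 0.751, 0.944 and 0.819. Over all probes the median difference in these settings was -0.07, -0.08 and -0.07.

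Btg1, which restrains T-cell proliferation, had a low array in each genotype. Its lowest, median and highest levels were 3.25, 4.34 and 4.50 in Roquin san/+ and 3.42, 4.25 and 4.68 in wild type. Replicate C was the lowest both times, and the difference was -0.02 ± 0.23, or 0.14 without the Roquin san/+ replicate C. Btg2, an early response gene of the same family, was at 0.90, 1.41 and 1.87 against 1.06, 1.42 and 1.89, a difference of 0.02 ± 0.19. Its dimmer RefSeq probe, which shares no run with probes of other genes, differed by -0.51 ± 0.62. That probe was at -3.54 on Roquin san/+ replicate C and from 0.84 to 1.27 on the other Roquin san/+ arrays. Tob2 was measured on 6 arrays of each genotype, because its brightest probe had no value on the displaced arrays. Its levels were -2.22, -1.63 and -0.25 in Roquin san/+ and -1.85, -1.56 and -1.40 in wild type. The single high array was Roquin san/+ replicate F, without which the difference of 0.08 ± 0.28 became -0.17. Its summed B-cell marker level was 5.90, against 2.59 on the next Roquin san/+ array, and the part of such cells in the Tob2 value was not tested. The deadenylases Pan2, Pan3 and Parn differed by -0.13, -0.17 and -0.13.

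Decapping and 5' to 3' decay follow deadenylation. These 10 genes had a median difference of -0.05, with 5 above 0 and 5 below and 0 past an unadjusted p of 0.05. Beside Xrn1 and Lsm1, described above, the lowest p belonged to Edc4, the scaffold that joins the decapping enzyme to its activators. Its levels were 1.17, 1.33 and 1.52 in Roquin san/+ and 1.33, 1.5 and 1.90 in wild type. On 3 of the 7 Roquin san/+ arrays it lay below every wild-type array, and the difference was -0.19 ± 0.13 with a limma p of 0.163. Dcp2, the decapping enzyme, was at -1.89, -1.73 and -1.43 against -1.88, -1.58 and -1.24, a difference of -0.14 ± 0.14. The helicase Ddx6, which ties microRNA and CCR4-NOT complexes to decapping, ran from -0.82 to 0.27 in Roquin san/+ and from -0.61 to 0.64 in wild type. Its difference was 0.02 ± 0.24, and its 3 probes ran from -0.10 to 0.05. Dcp1a, Dcp1b and Edc3, partners of the decapping enzyme, differed by -0.10, 0.01 and -0.12. The nuclear exonuclease Xrn2 and the decapping activator Patl1 differed by 0.08 and 0.11.

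AU-rich element binding proteins choose which transcripts are degraded, and poly(A) binding protein coats the tail. These 7 genes had a median difference of 0.05, with 4 above 0 and 3 below and 0 past an unadjusted p of 0.05. Zfp36, or tristetraprolin, which destabilises cytokine transcripts, was measured on 6 arrays of each genotype, because its only probe had no value on the displaced arrays. Its levels were -0.28, 0.40 and 0.61 in Roquin san/+ and -0.35, 0.34 and 0.57 in wild type. The lowest array was again replicate C in both genotypes, and the difference was 0.05 ± 0.21. Its relative Zfp36l2 had the smallest within-genotype SD of the 7 genes, 0.19, with levels of 3.0, 3.23 and 3.50 in Roquin san/+ against 2.86, 3.25 and 3.43, a difference of 0.05 ± 0.14 with a 95% interval from -0.26 to 0.35.

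Zfp36l1, the third of these relatives, gave different readings by probe. Its brightest probe had levels of 1.85, 2.86 and 3.22 in Roquin san/+ and 1.96, 2.63 and 3.03 in wild type, a difference of 0.08 ± 0.22. Its dimmer probe, also named by the RefSeq mRNA, had levels of -2.68, -2.20 and -1.07 against -2.96, -2.57 and -2.33, a difference of 0.64 ± 0.26. That probe was the only one of the 108 with an unadjusted p below 0.05 in the higher direction, at 0.0242 and an adjusted p of 0.883. Roquin san/+ replicates F, C, A and B lay above every wild-type array, and the difference was 0.49 without replicate F. The part of the B-cell RNA on replicate F in this value was not tested. In mm9 the brightest probe lies at chr12:81208803-81208862 and the dimmer at chr12:81210866-81210925, upstream of the first on the minus strand.

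Elavl1, or HuR, which protects AU-rich transcripts, had levels of 1.36, 2.12 and 2.39 in Roquin san/+ and 2.03, 2.22 and 2.38 in wild type. On 2 Roquin san/+ arrays it lay below every wild-type array and on 1 above, with replicate C the lowest, and the difference was -0.24 ± 0.17 with a limma p of 0.174, or -0.14 without replicate C. Khsrp, a decay-promoting protein, was at 1.40, 1.64 and 2.54 against 1.5, 1.91 and 2.56. Here replicate C was the highest in both genotypes, and the difference of -0.24 ± 0.21 became -0.38 without the Roquin san/+ replicate C, with an unadjusted p of 0.0416 and an adjusted p of 1.0. Its second probe differed by 0.16. Pabpc1, the main cytoplasmic poly(A) binding protein, was at 3.14, 3.41 and 3.98 against 3.14, 3.35 and 3.85, a difference of 0.06 ± 0.18. It differed by -0.46 on slide 1, where wild type had only replicates F and G. On slide 2, where Roquin san/+ had only replicates D and E, it differed by 0.57. The part of the slides in its value near 0 was not tested. Hnrnpd, or AUF1, differed by -0.02.

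Nonsense-mediated decay removes transcripts with early stop codons, and its 6 genes had a median difference of -0.01, with 3 above 0 and 3 below and 0 past an unadjusted p of 0.05. Upf1, the helicase at its centre, had levels of -1.55, -1.18 and -0.35 in Roquin san/+ and -1.34, -1.27 and -1.04 in wild type. The single high array was Roquin san/+ replicate C, and the difference was 0.13 ± 0.17, or 0.01 without it. Smg1, the kinase that acts on Upf1, was at 0.47, 0.68 and 1.1 against 0.08, 0.89 and 1.24, a difference of -0.09 ± 0.18. Smg6, the endonuclease of the route, was at 0.32, 0.85 and 1.02 against 0.71, 1.01 and 1.31, a difference of -0.16 ± 0.16, or -0.085 without Roquin san/+ replicate C. The adaptors Upf2 and Upf3b differed by -0.09 and 0.08.

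The 5 genes of microRNA silencing had a median difference of -0.07, with 2 above 0 and 3 below and 0 past an unadjusted p of 0.05. Ago2, the Argonaute protein that binds the microRNA, had levels of 0.62, 1.18 and 1.5 in Roquin san/+ and 1.02, 1.25 and 1.64 in wild type, a difference of -0.09 ± 0.16 that ran from -0.15 without Roquin san/+ replicate C to -0.0030 without replicate F. Dicer1, which cuts the microRNA from its precursor, was at -0.78, -0.38 and 0.00 against -0.70, -0.46 and 0.21, a difference of -0.07 ± 0.18 while its 4 probes ran from -0.07 to 0.19. The GW182 scaffolds Tnrc6a, Tnrc6b and Tnrc6c, which link Argonaute to CCR4-NOT, differed by -0.11, 0.06 and 0.05. A dimmer RefSeq probe of Tnrc6c, which shares no run with probes of other genes, differed by -0.54 ± 0.40. That probe was at -3.48 on Roquin san/+ replicate C and from -1.02 to -0.52 on the other Roquin san/+ arrays.

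The rest of the pathway was read from 70 further genes, of which 64 were on the array and 63 were tested. Their differences had a median of -0.15, with 12 above 0 and 51 below. Of all 21685 tested genes read by their brightest probe 9148 lay below, and of all probes 44.0%. At an unadjusted limma p below 0.05, 0 of the 63 were higher and 2 were lower, both of them subunits or partners of the exosome, the 3' to 5' nuclease complex. By the same rule 680 of all 21685 tested genes were higher and 126 lower. Wdr61, a part of the SKI complex that feeds the exosome, differed by -0.56 (limma p of 0.0269), and Exosc7, a subunit of the exosome ring, by -0.35 (limma p of 0.0421), each with an adjusted limma p of 0.883. Wdr61 was at -0.23 on Roquin san/+ replicate C and between 0.75 and 1.40 on the other 6 Roquin san/+ arrays, and without replicate C its difference was -0.37 (limma p of 0.0265). Its limma p was 0.0557 without wild-type replicate C. For Exosc7 the limma p stayed below 0.05 only when the array left out was Roquin san/+ replicate B or E or wild-type replicate D, E or G. Most of the genes below 0 were in the exosome and SKI list (14 of 16), among other RNA-binding regulators (11 of 12), other decapping and Lsm genes (9 of 11) and other nonsense-mediated decay and exon junction genes (8 of 9). Without Roquin san/+ replicate C the counts below 0 were 12, 9, 9 and 6 in these 4 lists, the median of the last moved from -0.24 to -0.067, and the median of the 63 genes was -0.10 with 48 below 0. The median of the 63 was below 0 under all 5 scalings, from -0.27 with the percentile over all probes to -0.06 with normexp, but on slide 2 alone 34 of the 63 lay below 0, and their median of -0.09 was above the -0.13 of all probes there.

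The extreme values of the 45 genes fell on a few arrays. By brightest probe, Roquin san/+ replicate C was the lowest of its genotype for 16 of the 45 genes and the highest for 16 more, and replicate E the lowest for 10 and the highest for 13. In wild type, replicate C was the lowest for 19 genes, and replicate E the highest for 17. Over all tested probes Roquin san/+ replicate C was the lowest of its genotype for 22.0% and the highest for 38.2%, and replicate E the lowest for 33.7% and the highest for 12.8%. In wild type, replicate C was the lowest for 25.5% of all tested probes and replicate E the highest for 43.3%, so that these arrays held many of the extremes over the whole array too. With the RefSeq probes, wild-type replicates B and D deviated from their genotype's median in much the same way (r = 0.86 over 45 genes), while replicates A and D deviated in opposite ways (r = -0.65). These correlations are over genes that share each array's RNA and scaling and carry no test.

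**Figure D3:**
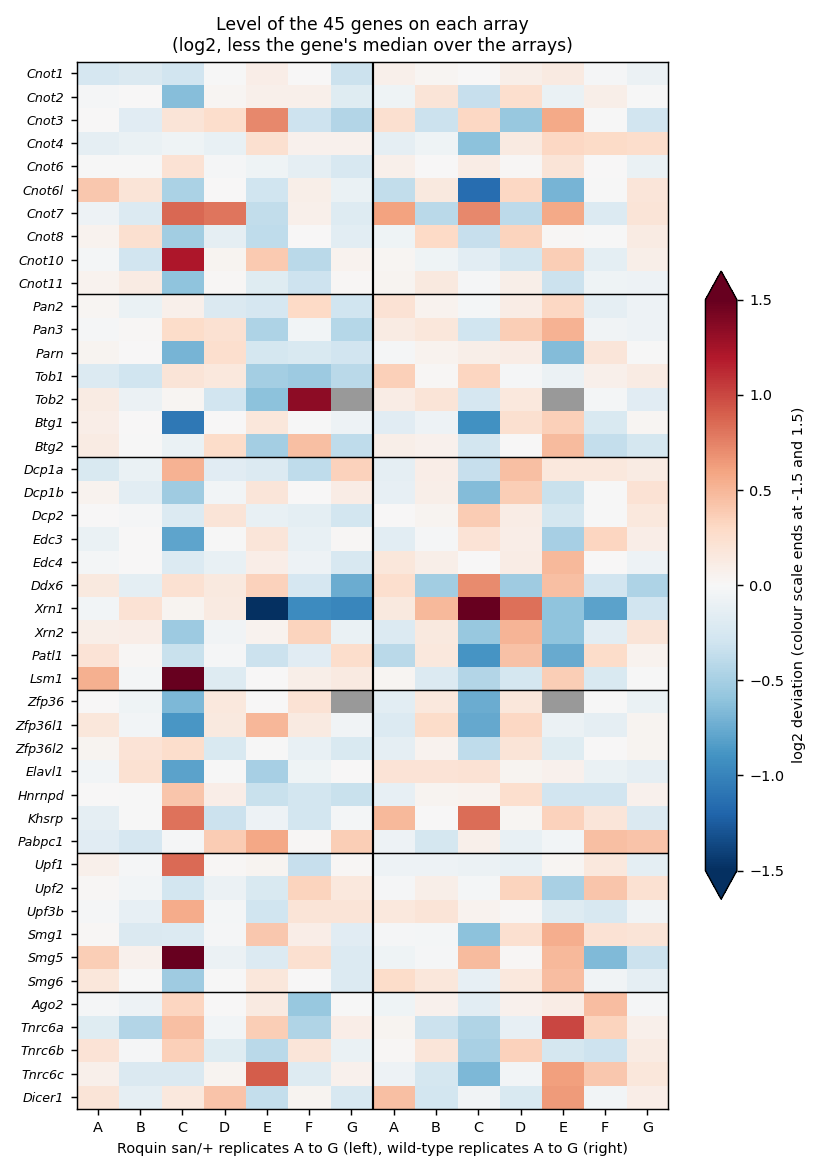
Log2 level of each of the 45 genes (rows, by functional group) on each of the 14 arrays (columns), less the gene's median over the arrays, with grey where an array gave no value. Red is higher and blue lower. Many of the strong colours stand in columns C and E of both genotypes, and no row separates the genotypes.

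Roquin san/+ replicate E stood apart by position along the transcript. For 28 of the genes the most upstream and most downstream RefSeq probes were compared on the 12 well-placed arrays, and on Roquin san/+ replicate E the upstream probe was lower by a median of -0.58. Over 5023 genes the value was -0.52 on that array. On the other arrays the median ran from -0.16 to 0.27 for the 28 genes. Over all such genes it ran there from -0.14 on wild-type replicate F to 0.32 on Roquin san/+ replicate C. The labels give an RNA integrity number above 7 for every sample, and the part of RNA length in these values was not tested.

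**Figure D4:**
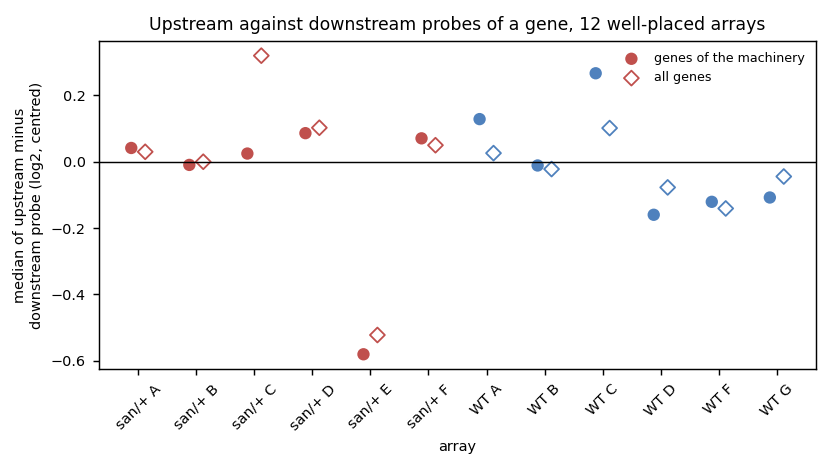
Median over genes of the most upstream minus the most downstream RefSeq probe, in log2 and centred on each gene's median over arrays (y axis), for the 12 well-placed arrays (x axis). Filled circles are the 28 genes of the machinery with both probes, open diamonds all such genes, red Roquin san/+ and blue wild type. Roquin san/+ replicate E lies lowest for both, at -0.58 and -0.52.

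Because Zfp36, Zfp36l1, Zfp36l2, Btg1, Btg2 and Tob1 include genes that respond early to activation or handling, their deviations from the genotype means were compared with those of Fos, an immediate early gene. None of the 6 relations passed the permutation test after Benjamini-Hochberg adjustment. The strongest was negative, for Btg1 over 14 arrays (Pearson r = -0.55, permutation p = 0.0384, adjusted p = 0.23, and Spearman rho = -0.60, permutation p = 0.0279, adjusted p = 0.168). Within the slides it was -0.61 and -0.53. Without the 2 arrays farthest in Fos, Roquin san/+ replicates C and F, r was -0.43 and rho -0.57, and without replicate F alone r was -0.65 and rho -0.54.

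The arrays carry T-cell RNA with some RNA of other cells. All 6 T-cell markers were well above background on the 12 well-placed arrays, with a log2 summed level of 4.74 to 6.42 in Roquin san/+ and 5.25 to 6.35 in wild type, and 0 of the 6 lay above 0 in the difference, against 4 of the 6 without Roquin san/+ replicate F and 2 without replicate C. All 7 B-cell markers and all 8 myeloid markers had a difference above 0, with medians of 0.82 and 0.93. Without replicate F 6 of the 7 and all 8 did, with medians of 0.21 and 0.38. The summed B-cell level ran from 0.32 to 5.90 in Roquin san/+ and from -0.59 to 3.92 in wild type, and the summed myeloid level from 3.78 to 8.02 and from 2.26 to 6.59. In bulk RNA fewer cells of a type and less RNA per cell cannot be told apart. The part of these cells in the differences of the 45 genes was not tested. Leaving out replicate F moved their median from -0.03 to -0.04.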

How the data were processed

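RNA of CD4+ T-cells was labelled and hybridised to single-colour Agilent arrays, and per the labels the scans were read with Agilent Feature Extraction 10.5.1.1. The authors deposited spot intensities, of which the background-subtracted, detrended processed signal was used, and a value table on a log2 scale. How that table was made is not given in the sources used here, and it served as an alternative. The paper describes other samples, so nothing but its style was used.

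Scans were loaded in Python 3.11.15 with pandas 2.3.3, numpy 2.4.6 and scipy 1.17.1. The grid position of every array was tested at 169 shifts by its correlation with the median of all arrays, and the 2 displaced arrays were moved by 2 rows. Outlier flags were left out and spots of a probe averaged on the log2 scale. Each array's 75th percentile over 24081 probes, well above background on the 12 well-placed arrays, was subtracted. Probes well above background on at least 6 of these 12, with at least 5 values per genotype, numbered 33120 and entered limma 3.58.1 (R 4.3.3), with Benjamini-Hochberg adjustment at 0.05 and no covariate. Detection calls of the displaced arrays were not used. The test was checked on simulated data.

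Named individually are the 10 genes with the lowest p, the 6 with the largest within-genotype SD and a list of 19 regulators, with Zfp36l1's second probe singled out after its values were seen. The genes and lists were chosen with earlier results of these data known. The number of arrays limits the precision. Slides 1 and 2 each hold both genotypes and served as a block. Replicate letters were not taken as pairs, since deviations of arrays with the same letter correlated at -0.28 to 0.41. Sequences and mm9 positions are those of the array's design.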

Additional observations from a re-analysis of the deposited data

Results flagged for a closer look

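In 13 of the 90 groups formed by a gene's brightest probe and a genotype, 1 array stood apart from the others by Dixon's test at the 95% level, which chance does in about 1 group in 20. Of the 13, 9 were on Roquin san/+ replicate C, 2 on Roquin san/+ replicate E, 1 on wild-type replicate C and 1 on wild-type replicate E. The groups share the same arrays and are not independent. Dixon's test was not run over all tested genes, so whether the count is particular to these genes was not tested. Over all tested probes Roquin san/+ replicate C was the lowest of its genotype for 22.0% and the highest for 38.2%.

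On Roquin san/+ replicate C, Cnot2 was at 0.24 with the nearest array at 0.69, Btg1 at 3.25 (nearest 4.25), Edc3 at -4.28 (nearest -3.60), Zfp36 at -0.28 (nearest 0.33) and Zfp36l1 at 1.85 (nearest 2.67), all of them low. On the same array Lsm1 was at 5.40 (nearest 3.78), Khsrp at 2.54 (nearest 1.72), Upf1 at -0.35 (nearest -1.11) and Smg5 at 8.16 (nearest 5.0), all of them high. On Roquin san/+ replicate E, Xrn1 was low at -3.65 (nearest -1.86) and Tnrc6c high at 2.06 (nearest 1.23). Zfp36 was also low on wild-type replicate C, at -0.35 (nearest 0.24), and Parn on wild-type replicate E, at -2.60 (nearest -1.97).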

How the results depend on the processing

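limma called 0 probes under all 13 alternatives fitted to all probes and with each array left out (unadjusted p below 0.05: 567 without wild-type replicate A to 3230 without wild-type replicate E, 2004 without Roquin san/+ replicate E, 659 without wild-type replicate F, 489 with slide as a block, 3040 on slide 1 alone, 592 on slide 2 alone, 536 with detection on all 7 arrays of a genotype, 1537 in the authors' values, 2451 without both displaced arrays and 54 under the deposited names). The lowest adjusted p of a named gene under any alternative was 0.509. Genes with an unadjusted p below 0.05 in the lower direction, 1 in the reported fit, numbered 0 to 2 with an array left out (2, Tob1 and Khsrp, without Roquin san/+ replicate C), 2 with the percentile over all probes (Tob1 and Xrn1), and 0 with normexp, no filter, detection on all 7 arrays of a genotype, slide as a block, slide 1 alone, slide 2 alone, the deposited names or no displaced arrays. Tob1 alone was lower at that threshold with quantile normalization, with detection on all 12 well-placed arrays and in the authors' values. In the higher direction there was 1 gene on slide 2 alone (Pabpc1) and 1 with the mean of a gene's probes (Zfp36l1). The letters as a replicate block left the median difference at -0.03 and 1 lower gene, which was Xrn1 (-0.81, limma p of 0.0189) and not Tob1 (-0.34, limma p of 0.0564). The median difference of the 45 genes ran from -0.0901 (without wild-type replicate C) to -0.0033 with an array left out. On the 12 well-placed arrays 55.4% to 76.5% of probes were well above background.

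Differences of named genes changed sign in 47 of 369 values under the alternatives. The cause was not tested. With normexp they were Cnot7 0.19 and Zfp36l2 -0.047. With quantile normalization Btg1 was 0.058, and in the authors' values 0.25. With the percentile over all probes they were Tob2 -0.032, Ddx6 -0.10, Cnot3 -0.0715, Zfp36 -0.064, Zfp36l1 -0.040, Zfp36l2 -0.070, Btg2 -0.10 and Pabpc1 -0.058. With slide as a block they were Cnot7 0.047, Tob2 -0.024, Zfp36l2 -0.010 and Btg1 0.043. On slide 1 they were Xrn1 0.21, Khsrp 0.090, Cnot7 0.097, Zfp36 -0.075, Zfp36l1 -0.088 and Pabpc1 -0.46, and on slide 2 Smg5 -0.33, Tob2 -0.50, Zfp36l2 -0.032, Btg1 0.20, Btg2 -0.19, Smg1 0.17 and Ago2 0.072. Under the deposited names they were Khsrp 0.030, Cnot7 0.14, Zfp36 -0.014, Zfp36l2 -0.0051, Pabpc1 -0.066, Smg1 0.22 and Ago2 0.17. Without the displaced arrays they were Cnot7 0.095, Btg1 0.051, Smg1 0.015 and Dicer1 0.062. With the mean of a gene's probes they were Tob2 -0.080, Ddx6 -0.010, Btg1 0.066, Btg2 -0.25 and Dicer1 0.097, and with the RefSeq probe Lsm1 -0.18 and Tob2 -0.060. On the displaced arrays the mean for Tob2 is its dimmer tested probe alone, since its brightest had no value there.

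With an array left out, sign changed within these ranges: Btg1 -0.15 to 0.14, Btg2 -0.062 to 0.10, Cnot3 -0.068 to 0.14, Cnot7 -0.15 to 0.066, Ddx6 -0.062 to 0.15, Dicer1 -0.14 to 0.021, Pabpc1 -0.015 to 0.13, Tob2 -0.17 to 0.225, Zfp36 -0.073 to 0.18, Zfp36l1 -0.036 to 0.22 and Zfp36l2 -0.0050 to 0.090. The correlation with Fos turned to 0.065 for Zfp36, -0.068 for Zfp36l2 and -0.0935 for Btg2 on slide 2, and to -0.41 with normexp and -0.0155 without the 2 farthest arrays for Zfp36l2.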
